A study of Homo sapiens and Mus musculus with 160 samples.

Results

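The comparison was between RNA half-life in the nuclear fraction and RNA half-life in the cytoplasmic fraction of NIH-3T3 cells, an established mouse embryonic fibroblast line. Of 17985 mouse genes listed, 11837 had both half-lives in both replicate tables, and 9886 of these had 95% credible intervals no wider than 4-fold (upper over lower bound) for both half-lives in both tables. These 9886 genes are the members. The cells carried no genetic change and received no treatment other than 4-thiouridine, a uridine analog built into newly made RNA, which was given for 0, 15, 30, 60 or 120 minutes. TimeLapse chemistry, which recodes the analog so that new RNA carries mismatches, preceded stranded total RNA library preparation, and the half-lives rest on 10 nuclear and 10 cytoplasmic samples in 2 replicate time courses. K562, a human chronic myelogenous leukaemia line handled in the same way, is the line set beside it. The labels do not say whether the replicates were separate cultures, so every limma p-value measures only the spread between tables, which may be technical.

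A protein-coding transcript is made and spliced on chromatin, released, exported through the nuclear pore and finally degraded in the cytoplasm. A half-life in a compartment is the time in which the RNA present there falls by 50%, so nuclear half-life counts export as well as decay, and cytoplasmic half-life counts decay. Transcripts of secreted, membrane and lysosomal proteins are translated on the endoplasmic reticulum, whose membrane is continuous with the outer membrane of the nuclear envelope. Nuclear half-life below is therefore that of RNA recovered in the nuclear fraction, and whether that fraction held RNA bound outside nuclei was not tested.

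The tables give each half-life in minutes, to 2 significant digits, as the mode of the authors' posterior with its 95% credible interval, which covers the fit of 1 time course. They hold no read counts, so the depth behind each value is unknown. All 9 fibroblast markers examined (Col1a1, Col1a2, Col3a1, Fn1, Vim, Pdgfra, Pdgfrb, Thy1 and S100a4) had both half-lives in both tables, and 6 were members. The median interval of a member spanned 1.32-fold for nuclear and 1.65-fold for cytoplasmic half-life. The log2 ratio of nuclear to cytoplasmic half-life had a Pearson r of 0.911 and a Spearman rho of 0.887 between the tables across members, with a median difference of 1.28-fold. Genes are not independent replicates, and the members share libraries.

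Most transcripts of the fibroblasts stayed longer in the nuclear than in the cytoplasmic fraction. The median nuclear half-life was 72.5 and 73 minutes in replicates 1 and 2, against a median cytoplasmic half-life of 36 and 34 minutes. The median log2 ratio was 0.91 and 1.02 in the 2 tables and 0.95 for their mean, a 1.94-fold longer nuclear half-life. Percentiles 25 and 75 of the members lay at 1.13-fold and 3.88-fold, and the range ran from a 16.8-fold longer cytoplasmic half-life to a 208-fold longer nuclear half-life.

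A member was counted as longer in a compartment when the authors' intervals did not overlap, in the same direction, in both tables. Nuclear half-life was longer in 5527 members (55.9%) and cytoplasmic half-life in 657 (6.65%), beside 51.8% and 5.71% of all 11837 genes with both half-lives. In the remaining 3702 the intervals overlapped in a table or, in 17 genes, lay apart in opposite directions. The count of longer cytoplasmic half-lives was 852 without replicate 1 and 1017 without replicate 2, so that count moved by over 1.5 times with replicate 2 left out. Leaving out a table can only raise the count, since the rule asks for both. Limma, fitted to log2 modes of all 11837 genes with Benjamini-Hochberg adjustment, called 5778 members with a longer nuclear half-life (58.4%) and 835 with a longer cytoplasmic one (8.45%) at an adjusted p under 0.05, beside 54.9% and 7.91% of all genes fitted. With each compartment of each table centred on its median, which takes away the general offset between the fractions, it called 2724 above and 3243 below that offset. No member reached the threshold in limma without nuclear replicate 1 (4566 nuclear longer and 577 cytoplasmic longer at an unadjusted p under 0.05) or without nuclear replicate 2 (4599 and 572).

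**Figure D1:**
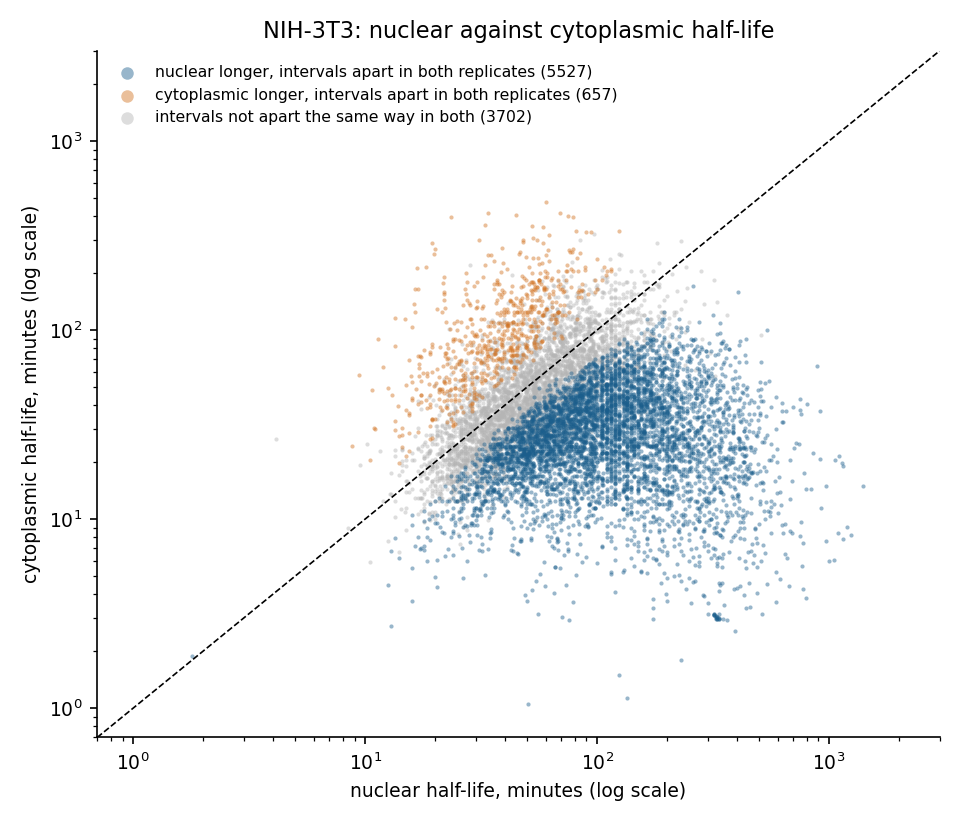
Nuclear (x axis) against cytoplasmic (y axis) half-life in minutes, both on log scales, for the 9886 members. Each point is a gene at the geometric mean of both replicates and the dashed line marks equality: 5527 points are coloured as longer in the nuclear and 657 as longer in the cytoplasmic fraction, and rho of the 2 half-lives is 0.049.

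The 2 half-lives of a gene were nearly unrelated in rank: Spearman rho of nuclear with cytoplasmic half-life was 0.049 across the 9886 members. Nuclear half-life ranged more widely, from 23.98 to 319 minutes between percentiles 5 and 95, than cytoplasmic half-life, from 10.9 to 115 minutes. The whole-cell and chromatin fractions, not used to choose the members, were ranked much like the nuclear one. Their RNA overlaps with that of the nuclear fraction, since transcripts are made on chromatin and whole cells include nuclei. Whole-cell half-life had a rho of 0.932 with nuclear half-life and 0.224 with cytoplasmic half-life across the same genes. Chromatin half-life had a rho of 0.936 with nuclear half-life. These coefficients describe genes measured in 1 set of libraries per fraction and carry no test.

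At the nuclear end stood transcripts with half-lives of hours in the nuclear fraction and of minutes in the cytoplasmic one. The highest ratio belonged to Cd109, which encodes a surface protein that binds transforming growth factor beta, with 790 and 800 nuclear minutes and 5.2 and 2.8 cytoplasmic minutes (log2 ratio 7.70 ± 0.36, standard error from limma, adjusted p = 0.0015). Flna, encoding the actin cross-linker filamin A, had 830 and 720 nuclear and 5.4 and 3.4 cytoplasmic minutes. Bsg, encoding the membrane protein basigin, had 1000 and 1100 nuclear and 7 and 5.3 cytoplasmic minutes. That both nuclear values lay far above both cytoplasmic ones in each of these genes follows from how they were chosen. Rpn2, a subunit of the endoplasmic reticulum complex that attaches sugars to new proteins, had 1100 and 900 nuclear and 5.5 and 6.6 cytoplasmic minutes. Tnc, the matrix glycoprotein tenascin C, had 510 and 520 nuclear and 3.1 and 3.2 cytoplasmic minutes, almost the same in both replicates. Its cytoplasmic intervals were wide, 1.2 to 4.7 and 1.3 to 4.9 minutes. Ctsb, the lysosomal protease cathepsin B, had 600 and 580 nuclear and 4 and 3.3 cytoplasmic minutes. Pcdhgc3 (a gamma protocadherin), Hspg2 (the basement membrane proteoglycan perlecan), Efemp1 (fibulin 3) and Fbln2 (fibulin 2) completed the 10 highest, with log2 ratios of 7.27, 7.25, 7.24 and 7.20. Among these 10, the widest interval of a gene ran from 3-fold in Flna to the 4-fold limit in Cd109, Hspg2 and Pcdhgc3.

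For all 10 the whole-cell half-life was below the nuclear one in both tables and far above the cytoplasmic one. Ctsb had 540 and 530 whole-cell minutes, Bsg 960 and 800, and Tnc 390 and 410. Their chromatin half-lives were long as well, with 250 and 550 minutes for Ctsb and 670 and 830 minutes for Tnc. All of these nuclear values lie above the longest labelling time and the cytoplasmic values below the shortest one, where a half-life rests more on the fitted model. Across the members, 754 had a nuclear half-life over 240 minutes in both tables and 135 had a cytoplasmic half-life under 7.5 minutes in both. Among the 8675 members whose 4 half-lives all lay between these limits, 4434 were longer in the nuclear and 607 in the cytoplasmic fraction.

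At the cytoplasmic end stood genes with half-lives of minutes in the nuclear fraction and of hours in the cytoplasmic one. Pts, encoding an enzyme of tetrahydrobiopterin synthesis, had 22 and 25 nuclear minutes (intervals 17 to 29 and 19 to 34) and 400 and 390 cytoplasmic minutes (240 to 650 and 230 to 640), a log2 ratio of -4.07 ± 0.13 (limma standard error, adjusted p = 0.0012). Cox17, the copper chaperone for cytochrome c oxidase, had 17 and 22 nuclear and 290 and 290 cytoplasmic minutes. Rps12, a protein of the small ribosomal subunit, had 32 and 36 nuclear and 390 and 440 cytoplasmic minutes. The replicates lay close together in these genes. That the compartments lay far apart follows from how the genes were chosen. Rps24, of the same subunit, had 34 and 32 nuclear and 360 and 360 cytoplasmic minutes. Cenpw, a centromere protein, had 26 and 13 nuclear and 170 and 270 cytoplasmic minutes, the widest spread between replicates among the lowest genes named here. Phykpl, Gng5 (a G protein gamma subunit), Hypk (a ribosome-associated chaperone) and Tatdn1 were also among them, with log2 ratios of -3.76, -3.68, -3.66 and -3.28.

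**Figure D2:**
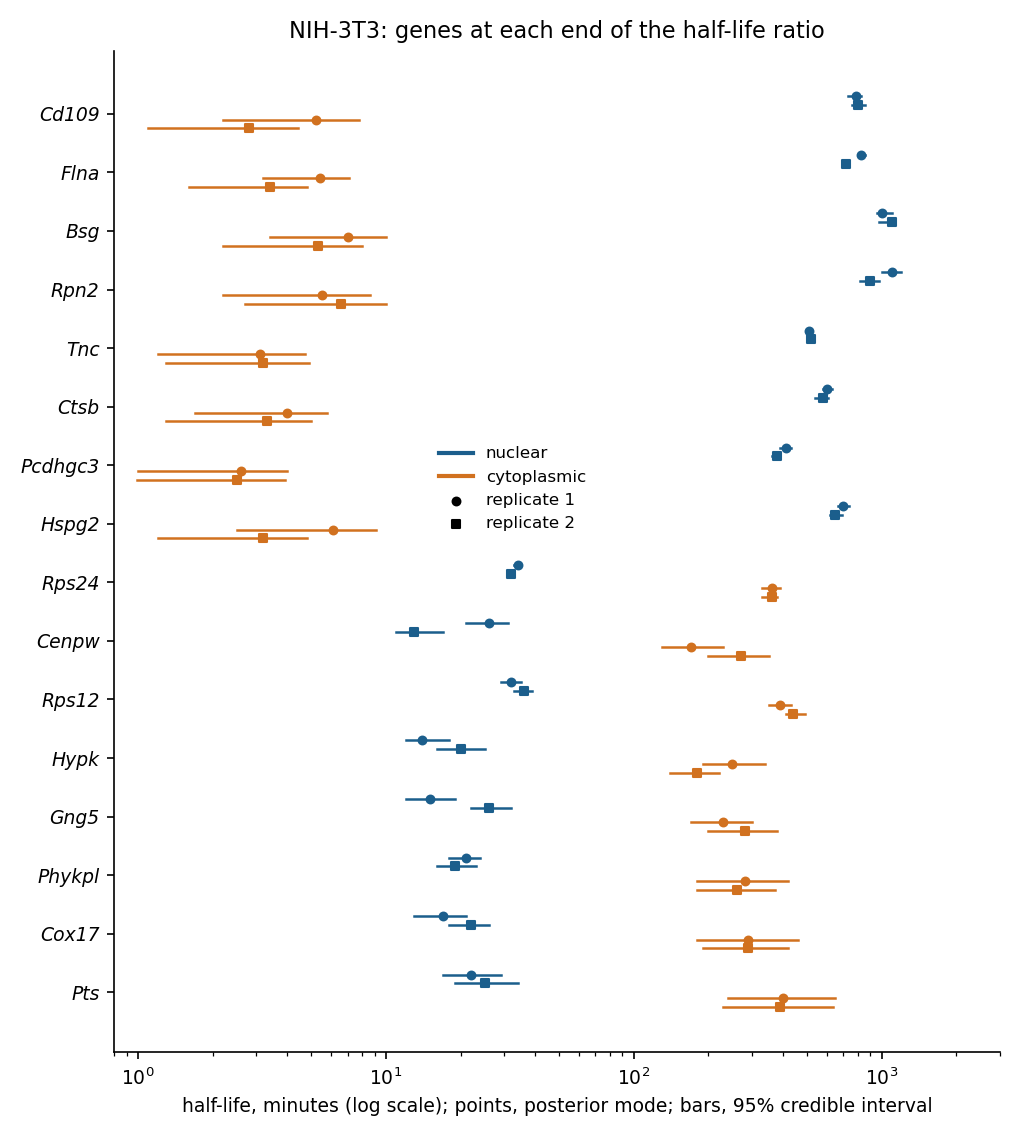
Half-life in minutes (x axis, log scale) of the 8 genes with the highest and the 8 with the lowest log2 ratio among members with intervals apart. Circles and squares are the posterior modes of replicates 1 and 2 and bars the 95% credible intervals: the nuclear values of the upper genes run from 380 to 1100 minutes against cytoplasmic values from 2.5 to 7 minutes, and the lower genes run the other way.

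All of these lowest genes carried the authors' call of nuclear degradation, a yes or no verdict of their model that RNA is also lost by decay in the nucleus. The call is computed from the same nuclear and cytoplasmic time courses and is no independent measure. It was given to 496 members (5.02%), of which 78 were longer in the nuclear and 331 in the cytoplasmic fraction, with a median log2 ratio of -1.08. Of the members with a longer nuclear half-life 1.41% carried the call, and of those with a longer cytoplasmic half-life 50.4%. Among the 9390 members without it, 5449 were longer in the nuclear and 326 in the cytoplasmic fraction, with a median log2 ratio of 1.01. In all of the lowest genes named above the whole-cell half-life was shorter than the cytoplasmic one, with 48 and 65 whole-cell minutes for Pts and 51 and 61 for Cox17.

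In between, some genes had equal half-lives within tight intervals. Avl9, a gene of vesicle traffic, had 28 and 30 minutes in the nuclear and 28 and 30 minutes in the cytoplasmic fraction. Oga, encoding the enzyme that removes O-GlcNAc, had 65 and 69 nuclear and 65 and 69 cytoplasmic minutes. Mpp6, encoding a membrane scaffold protein, had 120 minutes in all 4 values. Dpf2, a subunit of BAF chromatin remodelling complexes, and Fkbp1a, a prolyl isomerase that binds the drug FK506, had mirrored values of 28 and 31 against 31 and 28 and of 120 and 150 against 150 and 120 minutes, nuclear first.

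The interval rule left out 1951 genes with both half-lives, 1941 of them for their cytoplasmic interval. Their median log2 ratio was 1.05, and their median half-lives were 120 nuclear and 48 cytoplasmic minutes. Just inside the limit lay Yipf4, a Golgi membrane protein gene, with a widest interval of 4-fold and a log2 ratio of 3.97, and Zfp990, a zinc-finger gene whose replicates disagreed (-2.03 and 1.91). Just outside, at 4.02-fold, lay Lamc1, the laminin gamma 1 chain gene, with a log2 ratio of 6.28, and Fam161b, with 1.24. One nuclear mode of Zfp990, 0.27 minutes, lay outside its own interval, as it did in 2 members in all.

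When the members were ranked by log2 ratio and cut into deciles, the median nuclear half-life ran from 41 minutes in the lowest decile to 290 in the highest, and the median cytoplasmic half-life from 93 to 14 minutes. That much follows from the ranking. Whole-cell half-life, which the ranking did not use, ran from 72 to 280 minutes, and chromatin half-life from 29 to 220 minutes. The half-life of loading onto polysomes, also not used, ran the other way, from 18 to 5.6 minutes. In the highest decile the whole-cell median was thus near the nuclear one, while in the lowest decile it lay between the nuclear and the cytoplasmic median. Genes of 11 lists of secreted, surface, endoplasmic reticulum, Golgi, lysosomal and other membrane proteins made up 24.8% of the highest decile and 1.72% of the lowest. Their share of all members was 5.97%. The lists of mitochondrial proteins and of cholesterol synthesis were not among these 11. In the lowest decile lay 14 of 72 mitochondrial ribosomal, 10 of 62 respiratory chain and 11 of 60 mitochondrial carrier and import members, against 1, 17 and 2 in the highest.

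**Figure D3:**
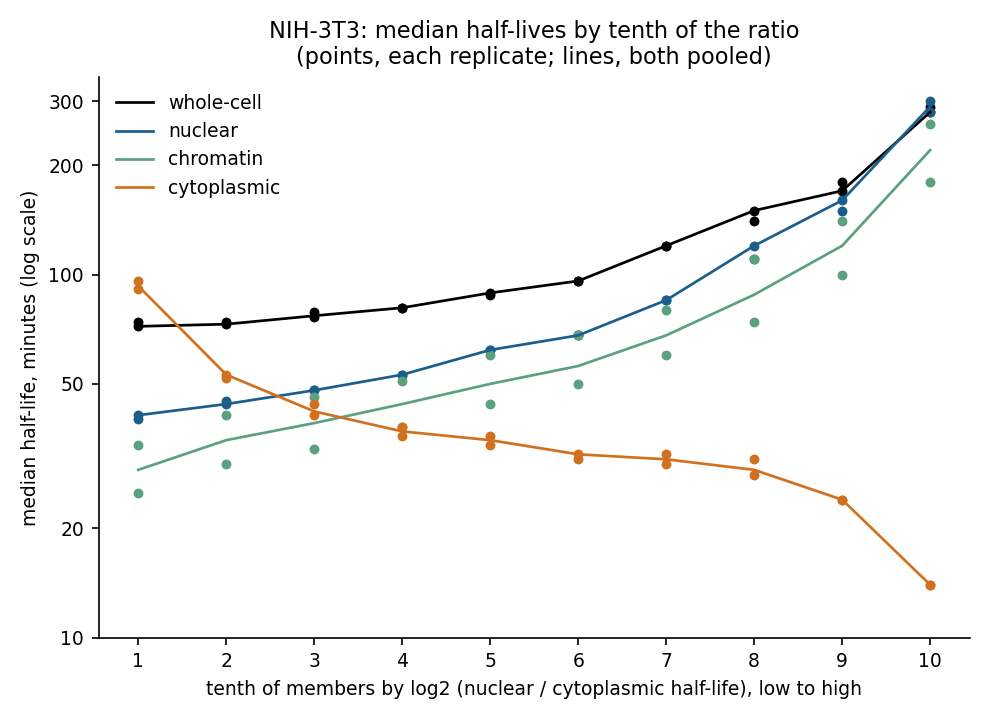
Median half-life in minutes (y axis, log scale) in each decile of the members ranked by log2 ratio of nuclear to cytoplasmic half-life (x axis, low to high). Points are the 2 replicates and lines the pooled median; the nuclear line climbs from 41 to 290 minutes, the cytoplasmic line falls from 93 to 14 minutes, the whole-cell line ends beside the nuclear one, and the chromatin replicates lie farthest apart.

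The functional lists followed a clear order. Of 37 lists with at least 5 members, 26 had a median log2 ratio above the 0.95 of all members and 11 below it. Some of those below lay close to it. Mitotic genes (0.947) were above all members in each table alone, with 0.925 and 1.08 against 0.914 and 1.02. RAB GTPases (0.931) were above in replicate 1 (0.983) and below in replicate 2 (0.755). Merged, the 11 secretory and membrane lists held 590 members, of which 511 were longer in the nuclear and 10 in the cytoplasmic fraction, with median half-lives of 130 nuclear and 16 cytoplasmic minutes. The 1725 members of the other lists had 935 and 149 such genes, and medians of 66 nuclear and 34 cytoplasmic minutes. Among the 7571 members in no list, the shares of longer nuclear half-lives were alike, 53.9% against 54.2% in the other lists.

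Extracellular matrix genes had the highest median of the broad lists, with a log2 ratio of 5.69 (5.90 and 5.59 in the replicates). A longer nuclear half-life was found in 27 of 28 members, set against 55.9% of all members, and a longer cytoplasmic one in 0. Their median half-lives were 355 nuclear and 7.75 cytoplasmic minutes, and 295 minutes in whole cells. Only 28 of the 67 matrix genes with both half-lives passed the interval rule and are counted here. The median was 5.37 over all 67, and only 1 member had intervals at most 2-fold. Col27a1, a fibrillar collagen chain, was lowest with 56 and 89 nuclear and 79 and 31 cytoplasmic minutes, which overlap. The genes that process matrix had a median of 4.33, with 32 of 34 longer in the nuclear fraction. Timp2, an inhibitor of matrix metalloproteases, had 470 and 410 nuclear and 2.9 and 4 cytoplasmic minutes. The median of that list was 3.69 over all 51 genes with both half-lives and 2.7 over the 4 with intervals at most 2-fold. Adamts10, a matrix protease of the same list, had 46 and 55 nuclear and 57 and 62 cytoplasmic minutes and was not called.

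Lysosomal genes had a median log2 ratio of 4.74 (1.09 over the 2 with intervals at most 2-fold) and 25 of 26 with a longer nuclear half-life, from Mcoln1, a lysosomal ion channel (77 and 93 nuclear and 170 and 81 cytoplasmic minutes), to Ctsb. Integrins, cadherins and other adhesion receptors had 4.37, with 29 of 30. The median of that list was 2.91 over all 76 genes with both half-lives, without the interval rule, and 2.87 over the 3 with intervals at most 2-fold. The 21 gamma protocadherin isoforms stood at 6.76, all with a longer nuclear half-life, but they share exons: only 15 distinct sets of values were listed among them, so their count is not 21 separate measurements. Growth factor and signalling receptors had a lower median, 2.61, but again 78 of 82 with a longer nuclear and 0 with a longer cytoplasmic half-life. Axl, a receptor tyrosine kinase, had 670 and 560 nuclear and 4.2 and 5.6 cytoplasmic minutes, while Lpar6, a lysophosphatidic acid receptor, had 23 and 20 against 20 and 18 minutes.

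Genes of the endoplasmic reticulum machinery had a median of 3.89, with 48 of 54 longer in the nuclear fraction and 1 in the cytoplasmic one. Over the 15 with intervals at most 2-fold the median was 1.93. The gene longer in the cytoplasmic fraction was Ssr4, a subunit of the translocon-associated complex, with 110 and 140 nuclear and 220 and 510 cytoplasmic minutes. It missed the threshold in limma (adjusted p = 0.081) and carried the degradation call. Golgi glycosyltransferases had 2.77, with 45 of 53 nuclear and 1 cytoplasmic. Galnt1, which starts O-linked sugar chains, had 270 and 280 nuclear and 5.2 and 6.2 cytoplasmic minutes. Its relative Galnt11 was the 1 exception in the list, with 64 and 72 nuclear and 170 and 200 cytoplasmic minutes. Solute carriers had a median of 2.30, with 90 of 105 nuclear and 1 cytoplasmic. Tetraspanins and TMEM proteins had 1.92, with 82 of 119 nuclear and 6 cytoplasmic, and growth factors and cytokines had 1.77, with 34 of 38 and 1.

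Some cytosolic and nuclear proteins had transcripts at the same end. Tubulins and intermediate filaments had a median log2 ratio of 3.15, with 15 of 16 longer in the nuclear fraction, among them Vim, the fibroblast filament vimentin, with 410 and 360 nuclear and 15 and 18 cytoplasmic minutes. Glycolytic enzymes had 2.92, with 14 of 14. Pgk1, the phosphoglycerate kinase, had 600 and 530 nuclear and 19 and 22 cytoplasmic minutes, and Eno2, an enolase, had 49 and 46 against 29 and 25. Cytosolic chaperones had 2.63 with 27 of 37, actin and focal adhesion genes 2.33 with 49 of 56, cholesterol synthesis genes 2.06 with 20 of 22, and proteasome subunits 1.99 with 34 of 36. Replication-dependent histone genes had 3.09, with 47 of 51 nuclear and 0 cytoplasmic, on short half-lives of 62 nuclear and 8.5 cytoplasmic minutes. Histone genes are near-identical copies, so how reads were split among them is uncertain.

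Cytosolic ribosomal protein genes split into both ends. Their median was 1.92, with 49 of 75 members longer in the nuclear and 16 longer in the cytoplasmic fraction, 16 in the highest and 16 in the lowest decile of all members. The 49 had median half-lives of 340 nuclear and 53 cytoplasmic minutes. The 16 had medians of 61.99 nuclear and 215 cytoplasmic minutes. Rps16, of the small subunit, had 440 and 410 nuclear and 13 and 21 cytoplasmic minutes, the mirror of Rps12. Both subunits took part: 31 large-subunit and 18 small-subunit genes were longer in the nuclear and 8 and 8 in the cytoplasmic fraction. Of the 9 with the degradation call, 8 had a longer cytoplasmic half-life, and so had 8 of the 66 without it. Processed copies of these genes are common in the genome, and how the counting treated them was not stated.

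The nuclear-encoded respiratory chain was split in a similar way, with a median of 2.29, 40 of 62 members longer in the nuclear and 7 in the cytoplasmic fraction. Over the 31 with intervals at most 2-fold the median was 0.75. Cox7a2, a cytochrome c oxidase subunit, had 1700 and 760 nuclear and 15 and 26 cytoplasmic minutes, and Ndufa6, a complex I subunit, 44 and 55 nuclear and 260 and 230 cytoplasmic minutes. Mitochondrial ribosomal proteins lay lower, at 0.76, with 33 of 72 and 11. Over the 45 with intervals at most 2-fold the median was 0.18. Under that limit C2H2 zinc-finger genes had 0.34 and mRNA export and nuclear exosome genes 0.38. Mrps21 had 530 and 480 nuclear and 50 and 25 cytoplasmic minutes, and Mrps10, of the same subunit, 18 and 26 nuclear and 210 and 150 cytoplasmic minutes. Mitochondrial carriers and import genes had 0.56, with 27 of 60 and 6. Translation factors stood at 1.74, with 43 of 54 and 3, and aminoacyl-tRNA synthetases at 1.61, with 26 of 38 and 2. Eif4g1, the initiation scaffold, had 390 and 380 nuclear and 13 and 13 cytoplasmic minutes, while Eif4a2, an initiation helicase, had 16 and 16 nuclear and 57 and 50 cytoplasmic minutes.

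At the low end, with all members of each list counted, lay splicing regulators, mRNA export and exosome genes and zinc-finger genes. SR and hnRNP splicing regulators had the lowest median, 0.04 (0.03 and 0.14 in the replicates), with 38 of 101 members longer in the nuclear and 29 longer in the cytoplasmic fraction, and 36 with the degradation call. Of those 29, 25 carried the call. Without called members the median was 0.67 over 65 genes, no longer the lowest: C2H2 zinc-finger genes then had 0.40 and mitochondrial carriers and import genes 0.61. Over all 101 splicing regulators the nuclear median was 60 minutes, against 73 for all members. Their cytoplasmic median, 55 minutes, was longer than the 34 of all members. Hnrnph3 had 29 and 36 nuclear and 180 and 100 cytoplasmic minutes, and Hnrnpa0 210 and 190 nuclear and 12 and 19 cytoplasmic minutes, so the list spans both directions. mRNA export and nuclear exosome genes had 0.41, with 16 of 35 nuclear and 9 cytoplasmic. Exosc5, a core subunit of the exosome that degrades RNA, had 32 and 23 nuclear and 130 and 310 cytoplasmic minutes. Sarnp, an export factor, had 240 and 250 nuclear and 43 and 31 cytoplasmic minutes.

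C2H2 zinc-finger genes had a low ratio, 0.39, on a different footing: both half-lives were short, with medians of 29 nuclear and 23 cytoplasmic minutes, and 73 of 367 were longer in the nuclear and 18 in the cytoplasmic fraction. Immediate early and AU-rich transcripts had shorter half-lives still, 21.5 nuclear and 11 cytoplasmic minutes, but kept the ratio of the typical gene, 1.00, with 47 of 73 nuclear and 0 cytoplasmic. Junb, an AP-1 transcription factor, had 36 and 30 nuclear and 5.8 and 4.4 cytoplasmic minutes, and Btg1, an antiproliferative regulator, 20 and 21 nuclear and 22 and 22 cytoplasmic minutes. The core spliceosome (1.06), DNA replication (1.17), mitotic genes (0.95), RAB GTPases (0.93), RNA polymerase II and Mediator (0.88), histone and DNA modifiers (0.70), ubiquitin-conjugating enzymes (0.68) and cytoplasmic mRNA decay factors (0.65) lay near the middle. Nuclear pore and karyopherin genes stood above it at 1.68, with 47 of 54 nuclear and 1 cytoplasmic, that of Xpo6, an exportin, with 58 and 56 nuclear and 83 and 80 cytoplasmic minutes. RNA polymerase II and Mediator genes had 42 of 76 nuclear (55.3%) and 7 cytoplasmic (9.21%), near the 55.9% and 6.65% of all members. Polr2a, the largest RNA polymerase II subunit, had 210 and 190 nuclear and 6.1 and 6.8 cytoplasmic minutes, and Polr2l, a small one, had 28 and 41 nuclear and 180 and 68 cytoplasmic minutes, which was not called.

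**Figure D4:**
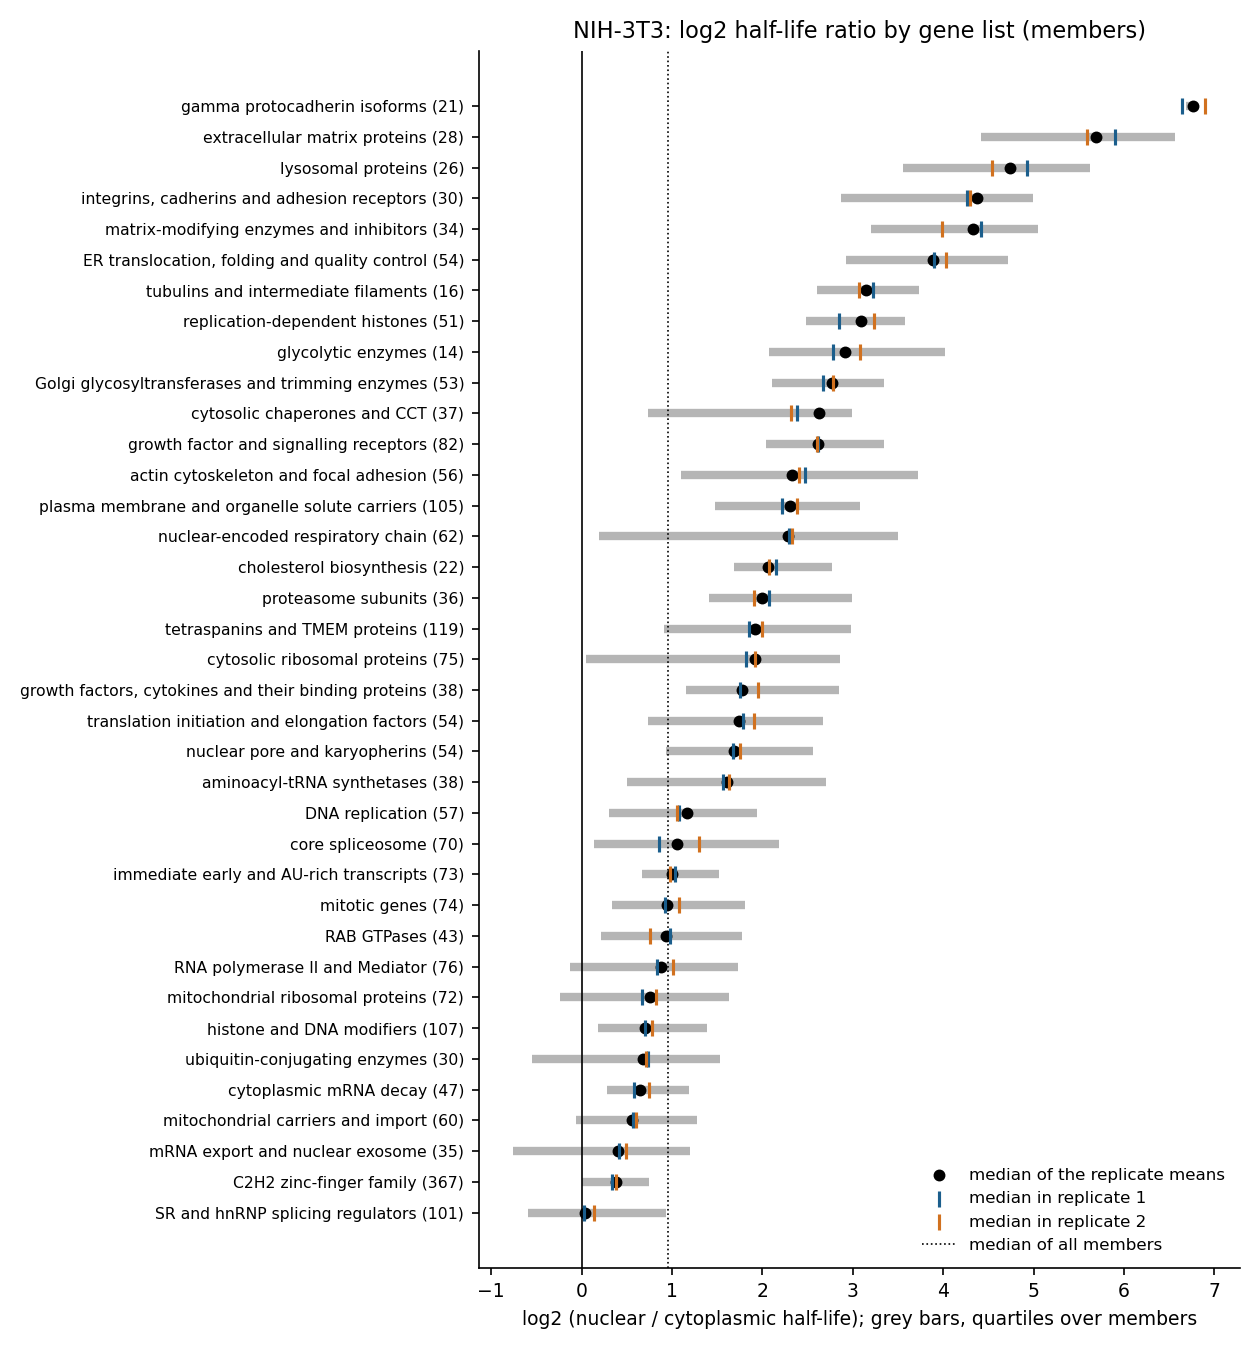
Log2 ratio of nuclear to cytoplasmic half-life (x axis) for 37 gene lists (y axis, number of members in brackets), ordered by median. Black points are medians over members, grey bars the quartiles, and coloured ticks the medians of replicates 1 and 2; matrix and lysosomal lists sit at 5.69 and 4.74, splicing regulators at 0.04, and the dotted line marks the 0.95 of all members.

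In K562 the ratio was lower and the order of the lists partly the same. For 8125 members whose gene symbol, ignoring case, had both half-lives in K562, the median log2 ratio was 0.95 in NIH-3T3 and -0.19 in K562, with 0.91 and 1.02 in the NIH-3T3 replicates and -0.38 and 0.00 in those of K562. The median nuclear half-life of these genes was 76 minutes in both lines. The cytoplasmic median was 36 minutes in NIH-3T3 and 86 minutes in K562. The lines differ in species, cell type and culture, which cannot be told apart here.

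Limma on the log2 ratios, 2 tables against 2, called 3238 members with a higher ratio in NIH-3T3 (39.9%) and 317 with a lower one (3.9%), beside 38.4% and 4.02% of the 9087 genes fitted. With each table's ratios centred on its median, 1208 were higher (14.9%) and 1283 lower (15.8%). Centring balances the differences around 0 by construction. No member was called without NIH-3T3 replicate 1, NIH-3T3 replicate 2 or K562 replicate 1 (3240, 3068 and 3659 at an unadjusted p under 0.05 in limma), and 2218 were called without K562 replicate 2. By intervals apart, 1682 of the paired members had a longer nuclear half-life in both lines and 334 a longer cytoplasmic one in both. A longer nuclear half-life in NIH-3T3 with a longer cytoplasmic one in K562 was found in 1120, and the reverse in 52. By the same rule of membership applied to K562, 9941 genes qualified there, with 2582 longer in the nuclear (26.0%) and 3181 in the cytoplasmic fraction (32.0%).

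The median ratio was higher in NIH-3T3 than in K562 in 37 of 37 lists, but after centring the median difference was above 0 in 16 and below 0 in 21. The median cytoplasmic half-life was shorter in NIH-3T3 in all 37. The largest median differences were those of gamma protocadherins, 6.8 in NIH-3T3 and 0.87 in K562 over 5 paired isoforms, and of extracellular matrix genes, 5.11 in NIH-3T3 and 1.76 in K562 over 10 paired genes. Of the matrix genes 6 were called higher and 0 lower (4 and 0 after centring). Cytosolic ribosomal proteins had medians of 1.92 in NIH-3T3 and -0.90 in K562, and 51 of 75 called higher and 4 lower (34 and 11 after centring). Their nuclear medians were 240 minutes in NIH-3T3 and 120 in K562, and their cytoplasmic medians 73.0 minutes in NIH-3T3 and 200 in K562. Rps16 had 58 and 88 nuclear and 300 and 210 cytoplasmic minutes in K562, the reverse of its NIH-3T3 order (difference 6.50 ± 0.55 on the log2 scale, limma adjusted p = 0.0078). Proteasome subunits had 1.99 in NIH-3T3 and -0.37 in K562, with 26 of 36 called higher and 1 lower (19 and 3 after centring). Genes of the endoplasmic reticulum machinery had high medians in both lines, 3.87 in NIH-3T3 and 3.43 in K562, with 12 of 52 called higher and 4 lower (5 and 12 after centring). Galnt1 had a log2 ratio of 5.60 in NIH-3T3 and 5.60 in K562 (difference 0.00 ± 0.36, limma adjusted p = 0.998). With the ratios centred on each table's median its difference was -1.17 (limma adjusted p = 0.045). Lysosomal genes had 4.74 in NIH-3T3 and 3.10 in K562, and splicing regulators were near the bottom in both, at 0.05 in NIH-3T3 and -0.57 in K562. Across the paired members the ratios of the lines had a Spearman rho of 0.449, as a description over 8125 genes.

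**Figure D5:**
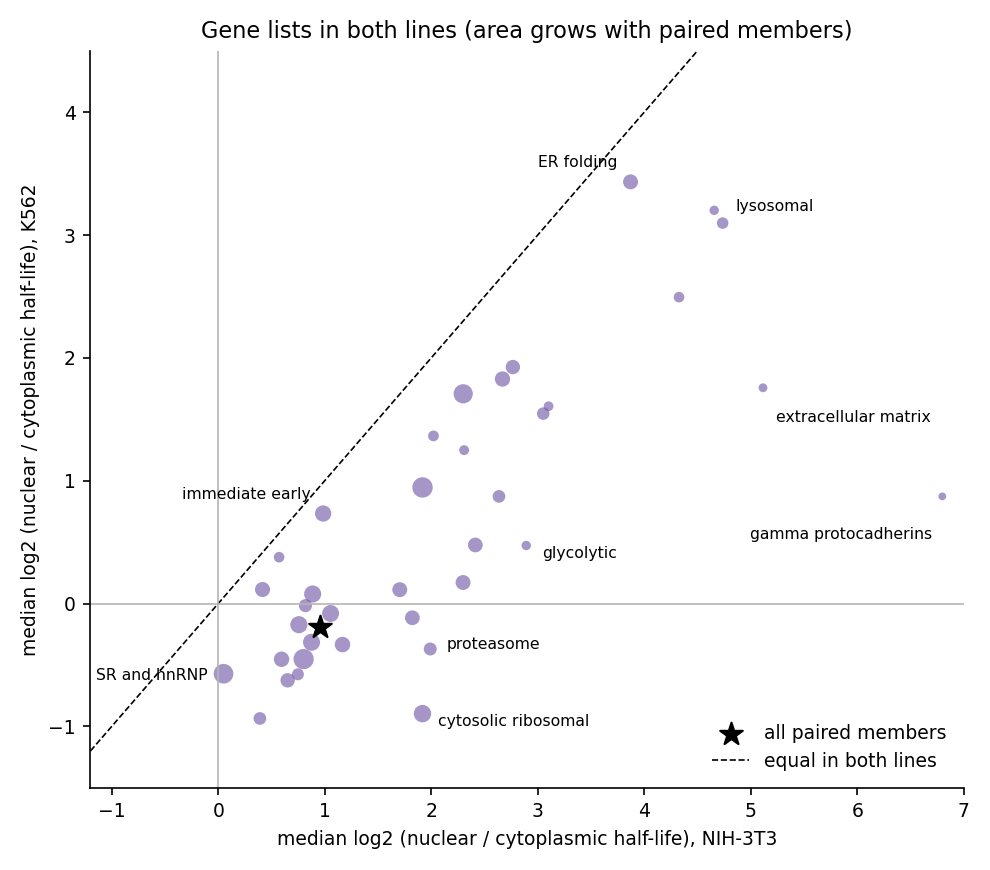
Median log2 ratio of nuclear to cytoplasmic half-life of each gene list in NIH-3T3 (x axis) and K562 (y axis), over members paired by symbol, with point area growing with their number. Every point lies below the dashed line of equality, the star marks all paired members at 0.95 in NIH-3T3 and -0.19 in K562, and cytosolic ribosomal proteins lie farther below the line than endoplasmic reticulum genes.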

How the data were processed

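Half-lives in NIH-3T3 and K562 were deposited by the authors in 4 tables, 1 per line and replicate: posterior mode, mean and 95% credible interval in minutes, with 6900 as the highest value listed, plus the nuclear degradation call. Per the submitters' processing notes, cutadapt 2.5 and STAR 2.7.0a were used with the hg38 and mm10 builds. The settings of the authors' fit are not given in the sources used here. A value is 1 time course of 5 labelling times (n = 2 tables), and no read counts are part of the tables. Members were genes with all 4 intervals at most 4-fold. Log2 modes were fitted with limma 3.58.1 in R 4.3.3 (two-sided, no pseudocount, no block, Benjamini-Hochberg adjustment at 0.05 over all genes fitted); Python 3.11.15 did the rest. K562 genes were paired by symbol, ignoring case. The fit was also run on simulated data with independent noise for each value. That run cannot show how the fit behaves when same-numbered nuclear and cytoplasmic values are correlated. The members and the 39 gene lists were chosen with earlier results of these data known, and symbols of several lists were corrected after the tables were read (histones, gamma protocadherins as a list of their own, misplaced names). The mitochondrially encoded list held 0 genes, and the list of noncoding host and nuclear RNAs 1 member, Snhg4, with a log2 ratio of 3.30. Named genes were the 10 highest and 10 lowest ratios with intervals apart, the highest and lowest gene of each list, 5 near equality with intervals within 1.5-fold, 2 on each side of the interval limit, and the 5 largest differences from K562 each way. One gene that the rule names is not reported here. Sequences and gene positions were not used here. The limma fit of nuclear against cytoplasmic half-life did not treat replicate numbers as pairs, since the labels do not tie them to a culture. The log2 ratios of each replicate, the interval counts and the comparison with K562 did set same-numbered nuclear and cytoplasmic values against each other.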

Additional observations from a re-analysis of the deposited data

Results flagged for a closer look

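The log2 ratio of nuclear to cytoplasmic half-life differed between NIH-3T3 and K562, by limma on the difference itself, in the 10 genes below, which are the 5 largest called differences each way. All values are NIH-3T3 minus K562 on the log2 scale, with the limma standard error after ±, and none of the calls held when a replicate of NIH-3T3 was left out.

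Lower in NIH-3T3 were Gng5, a G protein gamma subunit (-7.79 ± 0.36, adjusted p = 0.0078), Cox6c, a cytochrome c oxidase subunit (-7.03 ± 1.19, adjusted p = 0.014), Ggact, an enzyme that cleaves a gamma-glutamylamine (-6.09 ± 1.23, adjusted p = 0.020), Dad1, a subunit of the oligosaccharyltransferase (-6.06 ± 0.41, adjusted p = 0.0078), and Ndufb7, a complex I subunit (-5.93 ± 0.44, adjusted p = 0.0078). Gng5 had 15 and 26 nuclear and 230 and 280 cytoplasmic minutes in NIH-3T3, and 800 and 640 nuclear and 42 and 41 cytoplasmic minutes in K562. Dad1 had 94 and 100 nuclear and 130 and 100 cytoplasmic minutes in NIH-3T3, and 490 and 720 nuclear and 11 and 10 cytoplasmic minutes in K562. In both genes the lines do not overlap in nuclear or cytoplasmic half-life.

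Higher in NIH-3T3 were Ablim1, an actin-binding protein (11.51 ± 1.64, adjusted p = 0.011), Ift27, a subunit of the intraflagellar transport complex (9.44 ± 2.40, adjusted p = 0.035), Gstm1, a glutathione transferase (9.43 ± 0.62, adjusted p = 0.0078), Igfbp6, which binds insulin-like growth factors (8.39 ± 1.32, adjusted p = 0.012), and Wwtr1, the transcriptional co-activator TAZ (8.35 ± 0.35, adjusted p = 0.0078). Ablim1 had 140 and 74 nuclear and 32 and 66 cytoplasmic minutes in NIH-3T3, against 1.1 and 25 nuclear minutes in K562. Ift27 had 79 and 65 nuclear and 83 and 140 cytoplasmic minutes in NIH-3T3, against 0.55 and 79 nuclear minutes in K562. Igfbp6 had 500 and 480 nuclear and 4.8 and 6.5 cytoplasmic minutes in NIH-3T3, against 6900 and 470 nuclear minutes in K562. The K562 nuclear replicates of these 3 genes lie far apart, and 1 of them is at the highest value listed. In all 5 both K562 cytoplasmic half-lives were at the listed maximum of 6900 minutes, so the size of these differences rests on where the listed values end. That maximum was reached by 47 of the 8125 paired members in a K562 cytoplasmic value and by 0 in an NIH-3T3 cytoplasmic value. Without genes with any value at that maximum, 3225 members were higher and 317 lower in NIH-3T3. After centring, Ift27 had an adjusted p of 0.067 in limma and the other 9 genes stayed under 0.05.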

How the results depend on the processing

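Longer cytoplasmic half-lives by intervals apart numbered 657, and 326 without members with the degradation call. They ranged from 852 to 1017 with 1 table left out, the nuclear-longer count from 6041 to 6365, where both counts can only rise. In limma, centring on compartment medians gave 2724 nuclear and 3243 cytoplasmic calls, by the construction of that alternative, in place of 5778 and 835. Leaving out 1 nuclear or cytoplasmic replicate, chosen after seeing the data, gave 0 to 5072 nuclear and 0 to 608 cytoplasmic calls. For the line difference (3555 calls), leaving out 1 table gave 0 to 2218. The cause was not tested. Intervals at most 2-fold gave a median log2 ratio of 0.86 over 6644 members, against 0.95. Whether replicate numbers pair the fractions is not stated. With a replicate block, limma called 4333 nuclear and 455 cytoplasmic members and 3048 line differences, and Xpo6, Eno2 and Itgb8 passed the threshold no longer (adjusted p = 0.121, 0.058 and 0.062). Deviations of same-numbered nuclear and cytoplasmic values correlated at -0.465. A crossed replicate block, added after seeing the data, gave 5990 and 882 calls. Counted for each list under each alternative, the median moved by less than the replicate spread in 130 comparisons and by more in 91. Leaving out a replicate uses 1 of the 2 values that set that spread, so small moves there are partly built in. There were 0 changes of sign, and gamma protocadherins had no member with intervals at most 2-fold. The tables hold no counts, so limits set by depth cannot be given.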
